A study of Homo sapiens with 6 samples.

Results

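RAB GTPases are small switch proteins on the membranes of vesicles and organelles, and the synaptotagmin-like proteins, SYTL1 to SYTL5, are effectors that bind RAB27 on secretory vesicles. Members were taken by name from the deposited table of normalized counts as every gene called RAB with a number and at most 1 letter from A to D, and every gene called SYTL1 to SYTL5. The rule found 69 members among 61859 genes, of which 64 are RAB genes and 5 are SYTL genes. Of these, 58 had a mean of at least 10 normalized counts over the 6 samples and were tested. The other 11 were below that level, and 4 of them (RAB33A, RAB39A, RAB9B and RAB3C) were listed at 0 in every sample.

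The cells were OSC19SSZR, a sulfasalazine-resistant human oral squamous cell carcinoma line, and all samples share that resistant background. Sulfasalazine blocks the cystine importer xCT. In 3 samples the cells received a control siRNA and in 3 a FOXA1 siRNA, a short duplex that lowers the mRNA of the pioneer transcription factor FOXA1, and total RNA was sequenced 48 h later. The labels name neither the siRNA sequences nor separate cultures, so p-values cover only how far these libraries vary, possibly for technical reasons. Loss of FOXA1 and other effects of its siRNA cannot be told apart.

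RABs cycle between a GDP-bound form held in the cytosol and a GTP-bound form on membranes, where they recruit effectors such as tethers, motors and fusion regulators. Exchange factors (GEFs) load GTP, GTPase-activating proteins (GAPs) end the signal, and prenyl groups anchor the protein to the bilayer. Each RAB marks a step: RAB1 serves transport from the endoplasmic reticulum (ER) to the Golgi, RAB5 early endosomes, RAB4 and RAB11 recycling, RAB7 late endosomes, and RAB3 and RAB27 regulated secretion. In squamous and glandular epithelia the same machinery delivers receptors and adhesion proteins to the surface and releases secretory vesicles and exosomes.

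Values are normalized counts, that is, reads per gene scaled by each sample's size factor, so they compare samples but not genes of different length. Reads inferred per sample ranged from 16510125 to 25732569. Differences are log2 fold changes, FOXA1 siRNA over control siRNA, on the log2(normalized count + 1) scale with their standard error (SE). They come from limma with Benjamini-Hochberg adjustment over 18460 genes, and a gene rose or fell where its adjusted p was under 0.05. FOXA1 (ENSG00000129514, GRCh38 chromosome 14, 37589984 to 37596059) read 1477, 1378 and 1459 in controls and 247, 192 and 189 after its siRNA. It was at 14.5% of the control mean, a difference of -2.79 ± 0.09 (adjusted p = 3.32e-18). All 8 squamous markers were at 10 or more normalized counts on average, and 3 rose and 2 fell. Their sum was 52531 to 54772 in control samples and 58116 to 60883 with FOXA1 siRNA. Of 6 fibroblast markers only COL1A1 reached 10, DCN and LUM were at 0, and the sum ran from 148 to 165 in controls and from 92.5 to 137 with FOXA1 siRNA. Of 6 leukocyte markers only CD68 did, and the sums were 97.0 to 109 and 78.2 to 101. Of 4 endothelial markers only CDH5 did, KDR was at 0, and the sums were 542 to 571 and 279 to 302. In bulk RNA, fewer cells of a kind and less RNA per cell cannot be told apart.

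RAB and SYTL transcripts fell more often than they rose. Of the 58 tested members, 26 fell (44.8%), 9 rose (15.5%) and 23 did not pass the test. Over all tested genes 25.0% fell and 26.8% rose, 51.8% together. With a change of at least 1.5-fold, 13 members fell and 3 rose, beside 12.0% and 7.16% of all tested genes. The 7 that fell at least 2-fold were SYTL2, RAB36, RAB40B, RAB26, RAB4B, RAB1A and RAB15, and 5.33% of all genes did so. The median member differed by -0.16, and the median of all tested genes by 0.00. All 3 control samples lay above all 3 FOXA1 siRNA samples for 27 members and below them for 12, beside 28.1% and 29.5% of all tested genes. After every library was scaled to the same total, 29 members fell and 4 rose, against 32.3% and 19.4% of all genes, whose median then stood at -0.09.

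**Figure D1:**
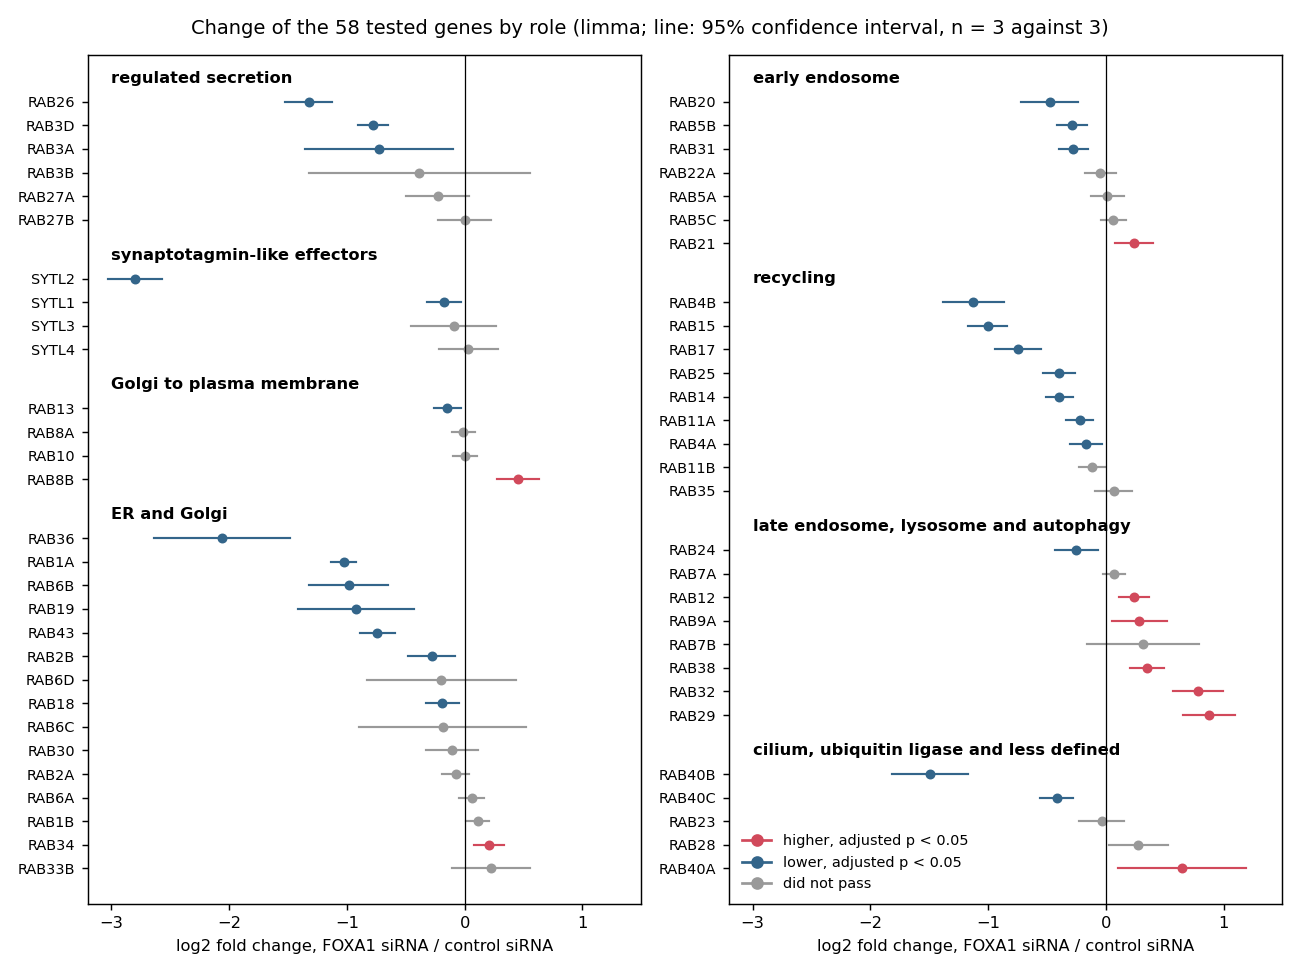
Log2 fold change, FOXA1 siRNA over control siRNA, of the 58 tested members with 95% intervals from limma, arranged by role; red marks members that rose, blue those that fell and grey those that did not pass. SYTL2 and RAB36 lie farthest to the left, and 5 of the 9 red points belong to late endosomes, lysosomes and autophagy.

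By role, the members did not move alike. In regulated secretion 3 of 6 tested members fell and none rose (median -0.56), and in recycling 7 of 9 fell and none rose (median -0.39). Of the 15 tested members of the ER and Golgi, 7 fell and 1 rose. The group of late endosomes, lysosomes and autophagy stood on the other side, with 5 of 8 higher and 1 lower (median 0.30). With libraries scaled to equal totals, 3 of those 8 were higher, and without control replicate 2 there were 4 and the median was 0.18. The median of regulated secretion was -0.30 with quantile normalization. Early endosomes (3 of 7 lower, 1 higher) and the mixed group with the RAB40 genes (2 of 5 lower, 1 higher) were divided. Of the 4 Golgi to plasma membrane carriers 1 fell and 1 rose, which is near the shares over all tested genes. Over all tested genes 25.0% fell and 26.8% rose. The role groups hold few members, and none was tested against those shares.

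Among the synaptotagmin-like proteins 2 of 4 tested members fell, and SYTL2 had the largest change of any tested member. SYTL2 (ENSG00000137501, GRCh38 chromosome 11, 85694224 to 85811159, minus strand) binds RAB27 through its amino-terminal domain and membrane lipids through its C2 domains. Control samples held 729, 749 and 725 normalized counts of it, and FOXA1 siRNA samples 84.7, 109 and 125. The highest treated sample was far under the lowest control. The mean was 14.5% of the control mean (734 ± 12.5 against 106 ± 20.1, SD, n = 3 each), a difference of -2.80 ± 0.11 (limma adjusted p = 2.69e-16).

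The other SYTL genes moved much less or were too low to test. SYTL1, also a RAB27 effector, read 1076, 1121 and 1141 in controls and 1045, 1061 and 859 after FOXA1 siRNA, with 1 treated sample well below the others. Its difference was -0.18 ± 0.07 (adjusted p = 0.0396), and without FOXA1 siRNA replicate 3 it was -0.08 (adjusted p = 0.286). It did not pass without control replicate 2 or 3 either. SYTL4, known as granuphilin from insulin granules, read 186, 145 and 182 against 188, 170.0 and 165. SYTL3 read 70.4, 68.6 and 86.8 against 80.4, 69.8 and 61.7. The groups overlapped for both genes. The 95% intervals of their differences were -0.22 to 0.28 for SYTL4 and -0.45 to 0.27 for SYTL3. SYTL4 shares 1298 exon bases with SRPX2 on the other strand (540 in controls, 424 with FOXA1 siRNA), whose part was not tested. SYTL5 was under the level for testing, at 11.4, 6.05 and 14.6 in controls and 3.22, 2.28 and 2.37 with FOXA1 siRNA, which rests on 32 and 8 inferred reads. With no filter on low values limma gave -1.63 (adjusted p = 0.0139), so that 3 of 5 SYTL genes then fell. The share of all genes that fell without the filter is not given here. In the authors' deposited table the log2 fold change of SYTL5 was -2.04 with a standard error of 0.87 and an adjusted p of 0.0506. The ratio of SYTL2 to SYTL1 normalized counts within a sample went from 0.660 ± 0.0224 to 0.110 ± 0.0325.

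RAB27A and RAB27B, the GTPases that SYTL proteins bind, did not pass the test. RAB27A docks secretory granules and multivesicular endosomes at the plasma membrane, and it read 127, 144 and 156 in controls and 123, 123 and 117 after FOXA1 siRNA. The samples did not overlap, yet the difference of -0.23 ± 0.13 had an adjusted p of 0.149 and an interval of -0.50 to 0.04. With equal library totals RAB27A passed, at -0.32 (adjusted p = 0.0409). It shares 154 bases of exon with PIGB on the other strand, which stood at 212 in controls and 145 with FOXA1 siRNA. It shares 183 with PIGBOS1 on its own strand, which stood at 63.5 and 45.9. The strand setting of the counting is not given in the sources used here, and the part of either gene in the RAB27A counts was not tested. RAB27B, its close paralog, read 202, 203 and 189 against 176, 206 and 213, with overlapping groups and an interval of -0.23 to 0.23. At this level of precision a change of RAB27B beyond its interval was not seen, while SYTL2 stood at 14.5% of its control level in the same samples.

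The promoters of these genes are shown because RAB27A, RAB27B and SYTL5 are among the few members whose window holds a forkhead-like word, while the promoter of RAB40B, which fell, holds none. RefSeq windows of 300 bases on GRCh38.p14, 250 before and 50 after an annotated start, were found for 54 of the 69 members (78 windows). The words searched on both strands were TGTTTAC and its variant TGTTTGC, together with the word TATTTAC and its variant TATTTGC. No word contains another, and 1 window can hold several. RAB27A and RAB27B also have windows without a word, which are not printed. GC content is 37.0% and 42.7% in the printed windows of RAB27A, 51.0% for RAB27B, 31.0% for SYTL5 and 73.7% for RAB40B. The part of GC content in the matches was not tested. Capitals mark the words, on either strand, and each sequence reads 5′ to 3′ on the strand of its gene.
RAB27A, chr15:55248999-55249298, minus strand: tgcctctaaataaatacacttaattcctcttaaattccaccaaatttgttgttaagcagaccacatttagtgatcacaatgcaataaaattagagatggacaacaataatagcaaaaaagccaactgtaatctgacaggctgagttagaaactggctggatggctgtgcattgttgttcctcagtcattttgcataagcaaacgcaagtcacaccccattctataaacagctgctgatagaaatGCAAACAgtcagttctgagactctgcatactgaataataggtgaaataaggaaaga
RAB27A, chr15:55237344-55237643, minus strand: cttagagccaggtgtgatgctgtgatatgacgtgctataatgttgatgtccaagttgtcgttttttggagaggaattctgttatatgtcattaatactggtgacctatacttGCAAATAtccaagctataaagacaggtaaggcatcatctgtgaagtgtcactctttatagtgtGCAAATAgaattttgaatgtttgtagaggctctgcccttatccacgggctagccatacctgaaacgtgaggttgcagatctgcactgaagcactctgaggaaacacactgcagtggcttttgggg
RAB27B, chr18:54717607-54717906, plus strand: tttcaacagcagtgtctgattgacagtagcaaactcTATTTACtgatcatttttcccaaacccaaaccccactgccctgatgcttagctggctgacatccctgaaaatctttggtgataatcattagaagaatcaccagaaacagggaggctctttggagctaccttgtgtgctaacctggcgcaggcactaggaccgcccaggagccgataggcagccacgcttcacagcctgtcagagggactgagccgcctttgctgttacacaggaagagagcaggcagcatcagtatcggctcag
SYTL5, chrX:38033284-38033583, plus strand: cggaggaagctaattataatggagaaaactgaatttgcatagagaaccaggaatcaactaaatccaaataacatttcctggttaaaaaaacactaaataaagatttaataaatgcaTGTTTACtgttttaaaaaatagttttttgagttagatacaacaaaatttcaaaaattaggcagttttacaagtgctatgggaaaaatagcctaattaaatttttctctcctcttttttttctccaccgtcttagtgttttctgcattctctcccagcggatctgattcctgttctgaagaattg
RAB40B, chr17:82698649-82698948, minus strand: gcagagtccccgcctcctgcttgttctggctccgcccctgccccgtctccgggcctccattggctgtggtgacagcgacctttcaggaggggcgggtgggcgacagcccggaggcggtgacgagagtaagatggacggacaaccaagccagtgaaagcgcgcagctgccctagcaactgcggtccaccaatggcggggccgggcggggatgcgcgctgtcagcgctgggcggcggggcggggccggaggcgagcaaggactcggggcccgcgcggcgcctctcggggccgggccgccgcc

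Such words were present in 7 of the 78 member windows (8.97%) and in 12.1% of all 35116 windows. They belonged to RAB13, RAB6D, RAB27A (2 windows), RAB27B and SYTL5 (2 windows). Among the windows of members that fell, 1 of 29 held a word, and of those that fell at least 1.5-fold, 0 of 12. These 12 windows come from 8 of the 13 such genes, 4 of them from RAB43. SYTL2, RAB36, RAB26, RAB1A and RAB15 had no window in the table and were not searched. Windows of members that rose held it in 0 of 9, and those of tested members that did not pass in 4 of 33. The median GC content was 63.3% in member windows and 58.7% in all windows. A match is a description of letters, and a window without one says nothing of binding at distant sites.

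The other granule RABs fell clearly in 2 cases. RAB3D, which sits on secretory granules of exocrine cells, read 1285, 1270.1 and 1289.8 in controls and 799, 738 and 707 with FOXA1 siRNA. That difference of -0.78 ± 0.06 (adjusted p = 4.14e-11) was many times the spread within either group. RAB3D overlaps AC011472.3 by 906 exon bases and CCDC159 by 144 on the other strand, whose normalized counts went from 312 to 168 and from 1009 to 653. On the same strand it shares 144 bases with TMEM205 (928 to 635) and 49 with AC011472.2 (78.7 to 37.2). The part of these genes in the RAB3D counts was not tested. RAB26, which acts in the maturation of granules in acinar cells, read 429, 429.7 and 472 against 156, 195 and 179, a difference of -1.33 ± 0.10 (adjusted p = 7.26e-12). RAB3A, the RAB of synaptic vesicles, was low at 47.6, 53.5 and 25.1 against 27.9, 31.1 and 15.4. Its groups overlapped, and its adjusted p of 0.0485 was lost without control replicate 1, control replicate 2 or FOXA1 siRNA replicate 3. RAB3B differed by -0.38 ± 0.46 and did not pass, and RAB37 stayed between 0.759 and 4.04 normalized counts in every sample.

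**Figure D2:**
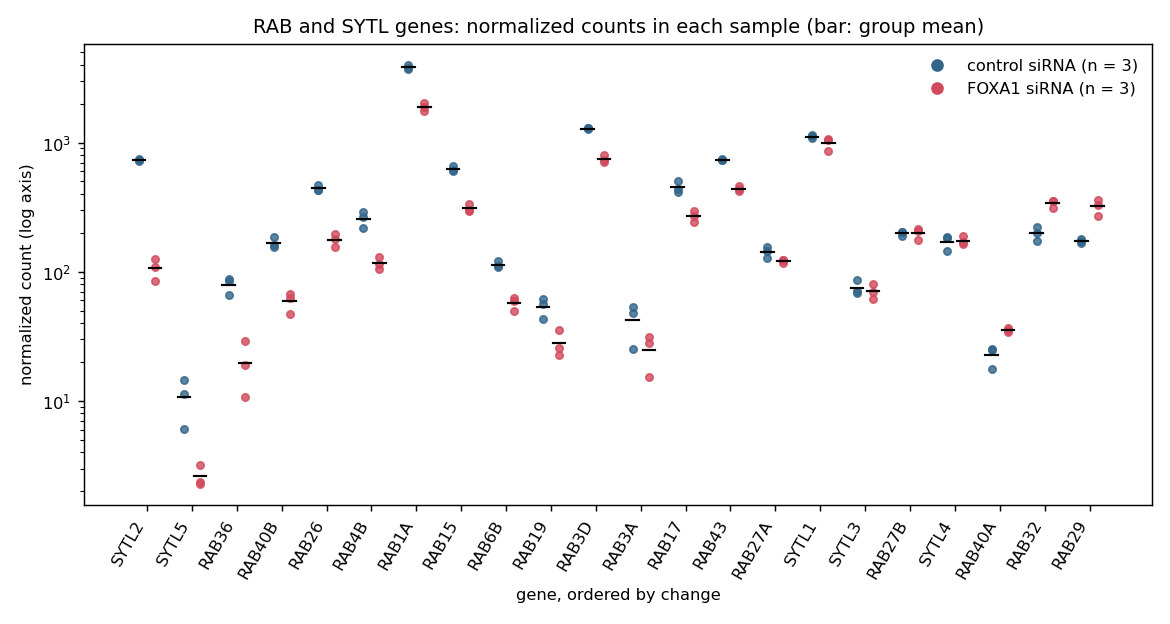
Normalized counts in each of the 6 samples for 22 members (SYTL1 to SYTL5, RAB27A, RAB27B and those that changed at least 1.5-fold), on a log axis and ordered by change; points are samples and bars are group means. SYTL2, RAB26, RAB36, RAB1A, RAB4B, RAB15 and RAB40B show 3 treated points well below the 3 control points, and RAB29, RAB32 and RAB40A show them above.

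From the Golgi to the plasma membrane, RAB8B rose and the abundant members were nearly level. RAB8B, which like RAB8A carries post-Golgi cargo to the surface and to cilia, read 290.1, 274 and 280.3 in controls and 399, 365 and 397 with FOXA1 siRNA. All treated samples were higher, by 0.46 ± 0.09 (adjusted p = 6.64e-05). RAB10, which drives GLUT4 and basolateral delivery, read 3039, 2961 and 2943 against 2915, 2877 and 3179, with an interval of -0.10 to 0.11. RAB8A had an interval of -0.11 to 0.09. RAB13, which acts at tight junctions, fell by 0.15 ± 0.06 on the log2 scale (adjusted p = 0.0288). This call was lost under 6 of 14 alternatives, among them leaving out any 1 control or FOXA1 siRNA replicate 1 (adjusted p 0.0657 to 0.0836). Of the 50-base stretches of RAB13, 20.1% occur in other genes, chiefly AL358472.6, with which it shares 682 exon bases on its own strand. AL358472.6 stood at 1992 in controls and 2149 with FOXA1 siRNA, and its part in the RAB13 counts was not tested.

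In ER and Golgi transport the pair RAB1A and RAB1B separated. Both encode GTPases of the ER-to-Golgi step and their proteins are near identical. RAB1A read 3984, 3796 and 3736 in controls and 1769, 1872 and 2013 with FOXA1 siRNA, which is 49.1% of the control mean. The difference was -1.03 ± 0.05 (adjusted p = 4.07e-15), and the groups lay far apart. RAB1B read 3309, 3266 and 3405 against 3589, 3612 and 3568, higher in all treated samples. Its difference of 0.11 ± 0.05 had an adjusted p of 0.0512, which became 0.0342 without FOXA1 siRNA replicate 3 and 0.0445 with genes of a mean under 50 left out. Within a sample the ratio of RAB1A to RAB1B went from 1.15 ± 0.0539 to 0.525 ± 0.0362. Only 0.417% of the 50-base stretches of the RAB1A transcript and 4.44% of those of RAB1B occur in another gene's transcripts, so reads of the pair are seldom shared. The antisense neighbour CEP68, which overlaps RAB1A by 757 bases, was at 633 in controls and 636 with FOXA1 siRNA. RAB1B is overlapped on the other strand by AP001107.2 (589 bases, 1423 in controls and 1547 with FOXA1 siRNA) and AP001107.1 (265 bases, 936 and 1004), whose part in its counts was not tested.

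Other Golgi RABs fell at lower levels. RAB36, a Golgi RAB that acts in the positioning of late endosomes, read 65.6, 84.7 and 87.9 against 28.9, 19.0 and 10.7, a difference of -2.06 ± 0.28 (adjusted p = 1.25e-06). RAB6B, the form of RAB6 known from neurons, read 121, 109 and 111 against 62.2, 59.2 and 49.8 (-0.98 ± 0.16, adjusted p = 1.1e-05). Neither gene's groups overlapped, while RAB6A, the common form, did not pass the test. RAB6B shares 381 exon bases with SRPRB on the other strand (1503 in controls, 1903 with FOXA1 siRNA), whose part was not tested. RAB43 read 748, 729 and 730.2 against 424, 458 and 438 (-0.74 ± 0.07, adjusted p = 1.19e-09). RAB43 acts in cargo sorting at the Golgi, and 90.9% of the 50-base stretches of its transcript occur in other genes, mostly in the readthrough gene ISY1-RAB43 (1531 in controls, 1413 with FOXA1 siRNA), so its reads are uncertain. RAB19 read 42.8, 56.5 and 61.7 against 25.7, 22.8 and 35.6 (-0.92 ± 0.24, adjusted p = 0.00213). RAB2B fell by 0.28 ± 0.10 and RAB18, known from lipid droplets and the ER, by 0.19 ± 0.07 on the log2 scale, while RAB34 was higher by 0.21 ± 0.06 (adjusted p = 0.00695). RAB2B and RAB18 did not pass without control replicate 1 or FOXA1 siRNA replicate 2, nor RAB2B without control replicate 3 (adjusted p 0.0583 to 0.139 and 0.0619 to 0.182). RAB34 did not pass without FOXA1 siRNA replicate 2 (adjusted p = 0.0608) or with equal totals (adjusted p = 0.141). RAB2A, RAB6A, RAB6C, RAB6D, RAB30 and RAB33B did not pass, and most stretches of RAB6C (55.8%) and RAB6D (55.0%) are shared with other genes.

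At early endosomes the changes were small. RAB5C, with RAB5A and RAB5B a GTPase of endosome fusion, read 1866, 1817 and 1829.6 in controls and 1999, 1894 and 1872 with FOXA1 siRNA (0.06 ± 0.05, adjusted p = 0.319). RAB5A and RAB22A did not pass either. Of the 50-base stretches of RAB5C, 36.2% occur in AC099811.2, with which it shares 794 exon bases on its own strand. AC099811.2 stood at 1628 in controls and 1733 with FOXA1 siRNA, and its part in the RAB5C counts was not tested. RAB5B fell by 0.29 ± 0.06 and RAB31, a RAB of trans-Golgi to endosome traffic, by 0.28 ± 0.06 on the log2 scale. RAB20, a RAB of phagosomes, fell by 0.48 ± 0.12 (adjusted p = 0.0013). RAB21, which carries integrins through endosomes, was the one that rose, by 0.24 ± 0.08 (adjusted p = 0.0119). It did not pass without control replicate 2 or FOXA1 siRNA replicate 3 (adjusted p 0.0564 to 0.0884) or with equal totals (adjusted p = 0.136).

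In recycling, 7 of 9 members fell and 3 of them at least 1.5-fold. RAB4B, a GTPase of the fast route from early endosomes, read 289, 217 and 264 in controls and 115, 129.8 and 106 with FOXA1 siRNA (-1.13 ± 0.13, adjusted p = 1.73e-08). Of its transcript's 50-base stretches 55.5% occur in other genes, such as the readthrough genes MIA-RAB4B (233 in controls, 108 with FOXA1 siRNA) and RAB4B-EGLN2 (1164 and 808). Counts of that locus are therefore uncertain as to gene. RAB15, which acts in the recycling of receptors, read 660.0, 600.2 and 608 against 299, 334 and 298 (-1.0 ± 0.08, adjusted p = 3.59e-11), with no stretch shared. RAB17, an epithelial RAB of apical recycling and transcytosis, read 413, 438 and 505 against 268, 297 and 242 (-0.75 ± 0.10, adjusted p = 1.94e-07). In both genes every treated sample was under every control.

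The rest of the recycling group shifted by less. RAB25, the epithelial relative of RAB11, fell by 0.40 ± 0.06 and RAB14, of Golgi and endosome traffic, by 0.39 ± 0.06 on the log2 scale. RAB11A, the GTPase of the slow recycling compartment, fell by 0.22 ± 0.05 (adjusted p = 0.0013). RAB4A fell by 0.17 ± 0.07 (adjusted p = 0.0372), and this call held in 8 of 14 alternatives. It did not pass without control replicate 1 or 3 or FOXA1 siRNA replicate 1 (adjusted p 0.0584 to 0.168). Of the 50-base stretches of RAB4A, 20.5% occur in SPHAR, with which it shares 648 exon bases on its own strand. The part of SPHAR in the RAB4A counts was not tested. RAB11B, the most abundant by count, read 2105, 2138 and 2172 against 2041, 2052 and 1837. Its groups did not overlap, and its difference of -0.11 ± 0.05 had an adjusted p of 0.0773. RAB35 did not pass the test.

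As roles were assigned here, the late endosomal and lysosomal group held 5 of the 9 members that rose. RAB36, which acts in the positioning of late endosomes and fell, was counted with the Golgi RABs. RAB29, which works at the trans-Golgi and at stressed lysosomes and recruits the kinase LRRK2, read 172, 166 and 179.9 in controls and 329, 271 and 362 with FOXA1 siRNA (0.88 ± 0.11, adjusted p = 1.14e-07). RAB32, of lysosome-related organelles, read 222, 198 and 174 against 353, 312 and 353 (0.78 ± 0.10, adjusted p = 3.63e-07). In both, the lowest treated sample was above the highest control. RAB38, the partner of RAB32 in melanosomes, rose by 0.35 ± 0.07 (adjusted p = 1.49e-04), RAB9A, which returns cargo to the trans-Golgi, by 0.29 ± 0.11 and RAB12, of receptor degradation, by 0.24 ± 0.06. With equal totals RAB12 and RAB9A did not pass (adjusted p = 0.0532 and 0.178), nor did RAB9A without control replicate 1 or 2 or FOXA1 siRNA replicate 1 (adjusted p 0.0528 to 0.272). The melanocyte enzymes TYR, DCT and TYRP1 were at 0, and the melanocyte list, carried by MITF and PMEL, of which 1 rose and 1 fell, summed to 505 to 570 in controls and 548 to 612 with FOXA1 siRNA. RAB7A, the main GTPase of late endosomes, read 3588, 3568 and 3593 against 3691, 3718 and 3861 (0.07 ± 0.05, adjusted p = 0.232), and RAB7B did not pass either. RAB24, of autophagosome clearance, fell by 0.25 ± 0.09 on the log2 scale, and 46.9% of its stretches are shared with other genes such as MXD3. Without control replicate 3 or FOXA1 siRNA replicate 1 it did not pass (adjusted p 0.0583 to 0.0791).

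The RAB40 genes, whose proteins carry a SOCS box and act in ubiquitin ligases, went in different directions. RAB40B read 185, 161 and 155 in controls and 47.2, 67.5 and 62.9 with FOXA1 siRNA, 35.4% of the control mean (-1.49 ± 0.16, adjusted p = 7.37e-09). RAB40C read 904, 896 and 921 against 719, 695 and 625 (-0.42 ± 0.07, adjusted p = 8.45e-06). Both were lower in all treated samples. RAB40A, low throughout, read 24.7, 25.2 and 17.8 against 36.4, 35.7 and 34.4 (0.65 ± 0.26, adjusted p = 0.0417). That call was lost under 6 of 13 alternatives that tested it, among them equal totals and leaving out control replicate 3 or any 1 FOXA1 siRNA sample (adjusted p 0.0681 to 0.158), and 15.9% of its stretches are shared with other genes, chiefly RAB40AL. RAB40A also shares 541 exon bases with Z69733.1 on the other strand, which stood at 24.1 in controls and 37.5 with FOXA1 siRNA. The part of Z69733.1 in the RAB40A counts was not tested. RAB23 and RAB28 did not pass.

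Some related members moved apart within samples. For 12 pairs, chosen after their values were seen, the ratio of normalized counts was taken in each sample and gives a description. The ratio fell to 51.2% of control for RAB4B to RAB4A, to 48.3% for RAB6B to RAB6A, to 47.6% for RAB40B to RAB40C and to 45.5% for RAB1A to RAB1B. It rose to 138% for RAB8B to RAB8A and 135% for RAB32 to RAB38. Control and treated samples overlapped for RAB27A to RAB27B (85.2%) and RAB11A to RAB11B (93.0%) and in none of the other 10 pairs. Of all tested genes taken singly, 57.6% did not overlap, and no such share was made for ratios. The ratio of RAB4B to RAB4A is uncertain, as 55.5% of the 50-base stretches of RAB4B and 20.5% of those of RAB4A occur in other genes. Because the pairs were picked on these values, no test of the ratios is given.

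**Figure D3:**
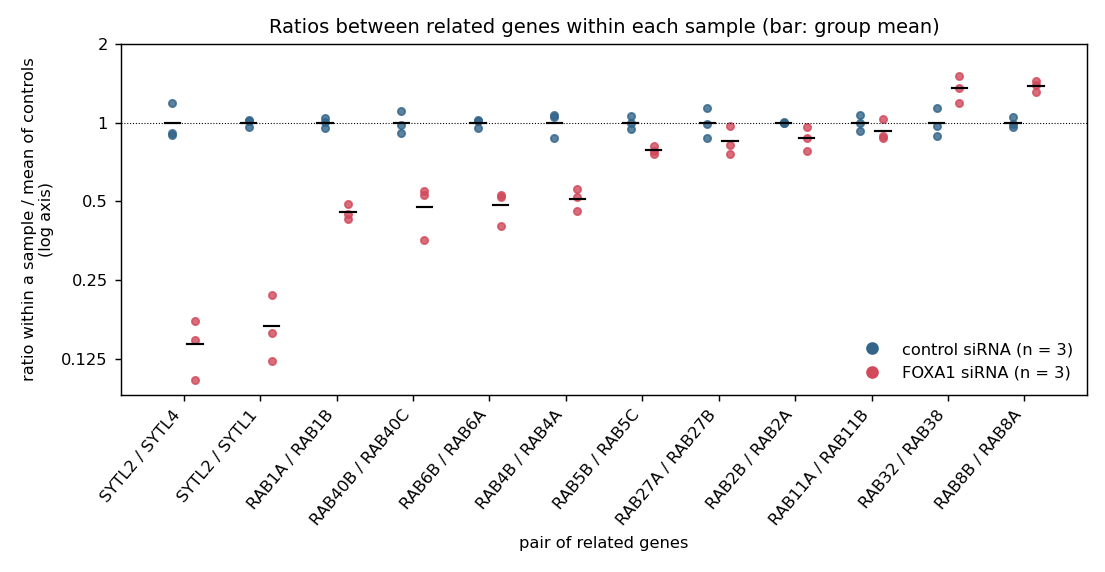
Ratio of normalized counts between 12 pairs of related members in each sample, relative to the control mean, on a log axis; points are samples and bars group means. SYTL2 stands at 0.142 of control relative to SYTL4 and at 0.166 relative to SYTL1, RAB1A relative to RAB1B at 0.455, and RAB27A relative to RAB27B overlaps between the groups.

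Levels were compared between genes as normalized counts per kilobase of the longest annotated transcript. In controls RAB1B led with 1658 per kb, followed by RAB7A at 1597 and RAB1A at 1569. With FOXA1 siRNA the first pair kept their places and RAB1A stood eighth at 770.1 per kb. SYTL2 went from 110.1 to 15.9 per kb, SYTL1 was at 415 in controls, and RAB27A and RAB27B were at 41.2 and 27.2. Summed per kb, all RAB genes went from 18127 ± 269 to 16673 ± 99.7, 92.0% of control, with no overlap. That sum includes RAB1A, which alone went from 1569 to 770.1 per kb, so it does not describe an even fall of the family. The sum for regulated secretion, in which RAB3D made up 47.8% of the control level, was at 55.2% of control, the SYTL sum at 75.7% and recycling at 82.1%. The sum for late endosomes and lysosomes was at 115%, and that for Golgi to plasma membrane, at 98.3%, overlapped between groups.

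**Figure D4:**
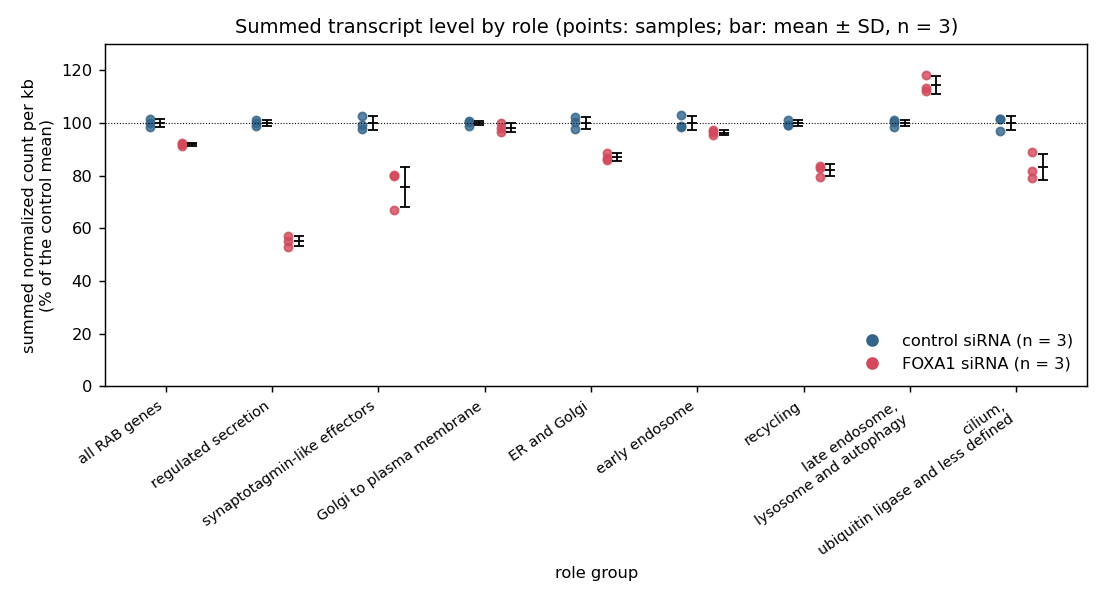
Summed normalized counts per kilobase of each role group as a percentage of the control mean, with 1 point per sample and bars for the mean ± SD (n = 3). Regulated secretion stands at 55.2% and the group of late endosomes, lysosomes and autophagy at 115%.

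The regulators and effectors of RABs were examined as lists by function, 204 genes of which 180 were tested. Among them 67 fell (37.2%) and 48 rose (26.7%), beside 25.0% and 26.8% of all tested genes, with a median of -0.04. After scaling to equal totals 80 fell and 30 rose. These counts belong beside the shares of all genes with equal totals, given above with the members. Shares in the lists below are from the main fit and stand against 25.0% and 26.8%. None was tested against them. Of 43 GEFs, 16 fell (37.2%) and 9 rose (20.9%). RINL, which belongs to the RIN family of RAB5 exchange factors, fell from 137 ± 13.8 to 27.7 ± 4.97 (-2.28 ± 0.19) and DENND1C, a RAB35 exchange factor, by 0.95 ± 0.10 on the log2 scale. MON1A, part of the exchange factor of RAB7, rose by 0.89 ± 0.15 and DENND2C by 0.67 ± 0.16. Of 35 GAPs 14 fell (40.0%) and 9 rose (25.7%). TBC1D4, a GAP of RAB10 known as AS160, and TBC1D30 each rose by 0.82, with SE of 0.08 and 0.12. TBC1D17 fell by 0.76 ± 0.08 and TBC1D19 by 0.62 ± 0.19 on the log2 scale, the second not without control replicate 3 (adjusted p = 0.0507). Of 9 genes of prenylation and GDP dissociation 4 rose (44.4%) and 3 fell (33.3%). RABGGTB, the catalytic subunit of the enzyme that prenylates RABs, rose by 0.46 ± 0.07, and the escort proteins CHML and CHM were at 0.26 ± 0.07 and -0.31 ± 0.07.

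**Figure D5:**
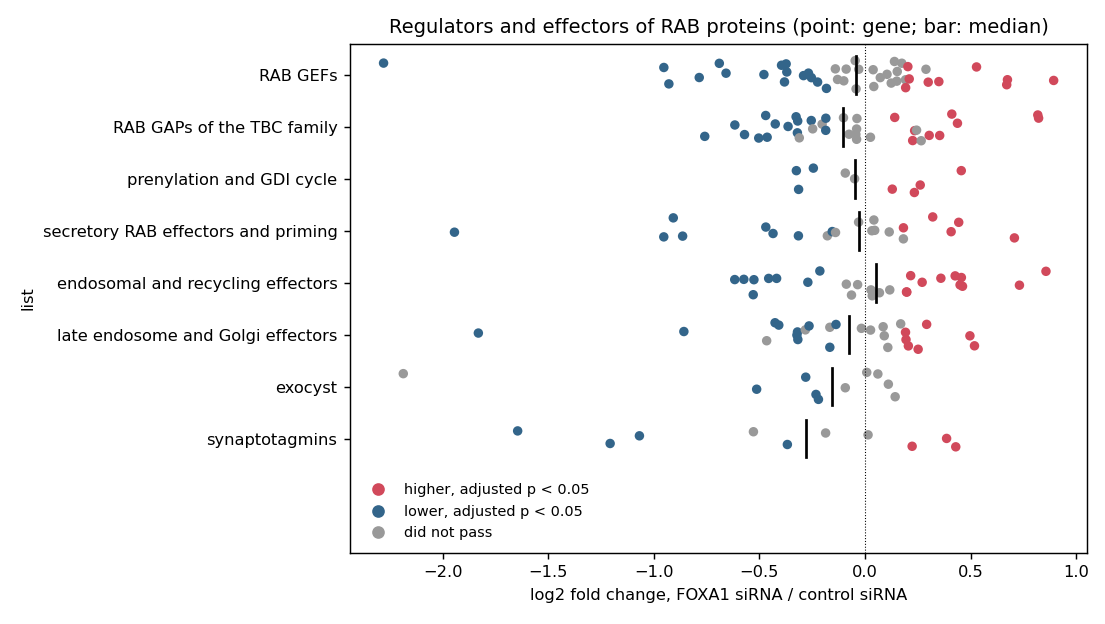
Log2 fold change of the tested genes in each of 8 lists of RAB regulators and effectors; each point is a gene, red where it rose, blue where it fell and grey where it did not pass, and black bars are list medians. RINL is the lowest point among the GEFs at -2.28 and SYT1 the lowest among the synaptotagmins at -1.64.

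On the secretory side the fusion genes split. Of 21 tested secretory effectors 8 fell (38.1%) and 5 rose (23.8%). MYO7A, an unconventional myosin, fell by 0.91 ± 0.19 on the log2 scale, while STX3, an apical syntaxin, rose by 0.71 ± 0.07 and VAMP3 by 0.44 ± 0.06. Of 10 exocyst genes 4 fell (40.0%) and none rose, among them EXOC7 by 0.51 ± 0.05 and EXOC1 by 0.28 ± 0.09 on the log2 scale. Without control replicate 1 or FOXA1 siRNA replicate 2 EXOC1 did not pass (adjusted p up to 0.0831). Of 10 synaptotagmins and extended synaptotagmins 4 fell (40.0%) and 3 rose (30.0%). SYT1, the calcium sensor of synaptic vesicles, fell by 1.64 ± 0.15 and SYT15 differed by -1.21 ± 0.17, whereas the ER tethers ESYT1 and ESYT2 rose by 0.43 ± 0.07 and 0.39 ± 0.05. Further RAB27 effectors, named after their values were seen, were MLPH (-1.94 ± 0.46 from a mean of 18.3 in controls), EXPH5 (-0.47 ± 0.18) and UNC13D, which did not pass at -0.03.

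Of 26 endosomal and recycling effectors 11 rose (42.3%) and 8 fell (30.8%), with a median of 0.05. The RAB11 binding proteins RAB11FIP5 and RAB11FIP1 rose by 0.86 ± 0.07 and 0.73 ± 0.09, while RABEP2, a RAB5 effector, fell by 0.62 ± 0.08 and MICALL2, an effector of RAB8 and RAB13, by 0.57 ± 0.09 on the log2 scale. Of 26 late endosomal and Golgi effectors 10 fell (38.5%) and 7 rose (26.9%). USO1, the RAB1 tether p115, rose by 0.50 ± 0.05 and FYCO1, a RAB7 effector, by 0.52 ± 0.07. RILPL2 fell by 0.86 ± 0.16. RILP, the RAB7 effector that recruits dynein, differed by -1.83 ± 0.54 (adjusted p = 0.0448), with treated samples at 21.4, 84.2 and 38.0, and this was lost under 5 of 14 alternatives, among them leaving out any 1 control or FOXA1 siRNA replicate 3 (adjusted p up to 0.134).

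The authors' deposited table had 20 members lower and 7 higher at an adjusted p under 0.05, among 60 with an adjusted p, beside 17.6% and 19.4% of 21657 genes. All 27 were also called by limma in the same direction. The 8 that limma alone called were RAB2B, RAB13, RAB40A, RAB24, RAB9A, RAB4A, RAB3A and SYTL1.

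Beside SYTL5, 6 members below the level for testing had any reads, and few. RAB41 had 7 in the control samples together and 17 with FOXA1 siRNA, RAB44 had 1 and 6, RAB42 had 5 and 2, RAB37 had 7 and 4, RAB1C had 2 and 4, and RAB39B had 2 and 0. With no filter on low values none of these 6 passed the test (adjusted p 0.172 to 0.696), and at this depth no difference was detectable in them. A gene with 0 reads among 114573293 in all 6 libraries can still stand at up to 3 reads, a limit that covers counting error only. Among the tested members RAB3B was the one with a group mean under 10.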

How the data were processed

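Total RNA of 6 samples was sequenced from NEBNext Ultra libraries, per the labels' protocols. HISAT2, DESeq2, GRCh38 and GRCm38 are named in the submitters' processing notes without versions or roles, and the counting program and its strand setting are not given in the sources used here. Per the file headers, the authors deposited 1 normalized signal value per gene and sample (a normalized count) and their mean signal. The authors also deposited a log2 fold change with its standard error, a test score and p-values with adjusted p-values. Of 61862 lines 3 were malformed and left out. In each sample 100% of values were whole multiples of 1 step to within 0.01 read, from which reads were inferred (16510125 to 25732569 per sample).

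Groups came from the sample titles. Limma 3.58.1 in R 4.3.3 (lmFit, eBayes with trend and robust) was run on log2(normalized count + 1) for 18460 genes with a mean of at least 10, adjusted by Benjamini-Hochberg at 0.05. The added 1 draws folds of low genes toward 0, but not every low member had a smaller fold here than in the authors' table. On simulated data of 18460 genes it recovered 45 of 67 genes changed 1.5-fold, 63 of 67 at 2-fold and 66 of 66 at 4-fold. It also called 8 unchanged genes. Only the genes named here were changed in the simulation, whereas 51.8% of all tested genes passed in these data. Because the adjustment depends on that share, neither the recovery nor the number of unchanged genes called carries over to these data. The changed genes all had a mean of at least 50, so recovery of lower members was not tested. Transcript lengths, overlaps and shared 50-base stretches came from GENCODE 29, and promoters from RefSeq GRCh38.p14. Of the IDs, 61756 of 61859 matched the gene name table.

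The members, lists and tests were chosen with earlier results of these data known. Values in all samples are given for SYTL1 to SYTL5, RAB27A, RAB27B, members past the threshold with at least 1.5-fold, and the most abundant member of each role. Each pathway list has up to 2 named genes per direction with a mean of at least 50. Some genes that this rule would name are not reported here. Alternatives were other pseudocounts (0.5 and 5), filters (none, at least 50) and scalings, limma without trend and robust, a replicate block, and each sample left out.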

Additional observations from a re-analysis of the deposited data

How the results depend on the processing

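Of the 35 members that passed the test none changed direction under the 14 alternatives. Of the 16 with at least a 1.5-fold change, 14 passed under every alternative that tested them, the exceptions being RAB3A and RAB40A. The filter at a mean of 50 left out RAB19, RAB36, RAB3A and RAB40A, which had 13 alternatives. Of the 9 members that rose 4 passed wherever tested, and of the 26 that fell 19 did. Scaling to equal totals lowered the number that rose to 4 among members and to 30 among regulators and effectors. The share of all genes that rose was lower with equal totals as well. Leaving out 1 sample gave 7 to 9 members higher and 21 to 24 lower, and 39 to 45 and 59 to 66 regulators and effectors. Limma without trend and robust gave 7 members higher and 20 lower. For limma, the shares of all genes that rose or fell are given only for the main fit and for equal totals. Counts under the other settings, here and elsewhere, stand without that comparison. The cause of the shifts between settings was not tested.

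No pairing by replicate number was detected. Deviations of same-numbered samples correlated at -0.0102, 0.0109 and -0.0109 over 18460 genes, and not every sample correlated best with its own number. With 3 samples a group, such correlations cannot show that same-numbered samples were not prepared together. With the replicate number as a block, 9 members rose and 25 fell, RAB4A no longer passing (adjusted p = 0.0556), and 45 and 68 regulators and effectors did.

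Members that had not passed the test changed sign as follows. With equal totals the values were RAB6A at -0.037, RAB10 at -0.095, RAB5A at -0.087, RAB5C at -0.034, RAB7A at -0.030, RAB35 at -0.031, RAB27B at -0.097 and SYTL4 at -0.067. With quantile normalization they were RAB6A at -0.041, RAB6C at 0.073, RAB6D at 0.016, RAB10 at -0.10, RAB5A at -0.049, RAB5C at -0.0059, RAB7A at -0.033 and SYTL3 at 0.055. Over the fits that left out 1 sample, the differences ran from -0.37 to 0.027 for RAB6D, -0.042 to 0.030 for RAB10, -0.025 to 0.015 for RAB8A, -0.076 to 0.015 for RAB23, -0.044 to 0.067 for RAB5A, -0.054 to 0.085 for RAB27B, -0.77 to 0.043 for RAB3B, -0.19 to 0.015 for SYTL3 and -0.083 to 0.096 for SYTL4.

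The planned count tests, edgeR and DESeq2 on inferred reads, were left out, because 2 of the 6 columns as deposited did not pass a check for whole reads, although all 6 were whole multiples of 1 step once malformed lines were taken out. Precision is limited by 3 samples a group and, for low members, by reads.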

Other observations

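Changes of all genes depended on expression level, and the members are set beside that here. Among 4163 genes that averaged 1000 normalized counts or more, 47.7% rose and 22.3% fell (median log2 fold change 0.12), while among the 17 members at that level 1 rose and 8 fell (median -0.11). Between 200 and 1000 normalized counts, 31.8% of 6582 genes rose and 27.0% fell, and of 23 members 7 rose and 11 fell. Between 50 and 200, 15.7% of 3768 genes rose and 29.8% fell, and of 11 members none rose and 4 fell. Between 10 and 50, 7.27% of 3947 genes rose and 20.0% fell, and of 7 members 1 rose and 3 fell. These bands were set for description after the calls were known.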
